A study of Mus musculus with 10 samples.

Results

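The comparison described here sets XMP against megakaryocyte-erythroid progenitors (MEP) of the same Runx1-deleted marrow, with 2 RNA-seq libraries on each side out of 10 in the series. XMP is the submitters' name for mouse bone-marrow cells that carry both CD16/32 and CD150 on their surface. In the RPKM table (reads scaled to gene length and library size), 10234 of 23240 genes reached 1 RPKM in at least 2 of these 4 libraries and were tested. Relative to Runx1-deleted MEP, XMP held more transcript of platelet receptors and platelet signalling genes, of a small set of stem cell regulators and of many myeloid genes. They held far less transcript of red cell surface and membrane genes, while the globin transcripts were higher.

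XMP and Runx1-deleted MEP were both sorted from Runx1fl/fl mice with the vav-Cre transgene, whose promoter drives Cre recombinase in blood cells, so every cell of this comparison carried the same genotype. Both were lin- sca- kit+ cells without CD41 and CD105 and with CD150, and they differed in the gate for CD16/32, which was positive for XMP and negative for MEP. The other libraries were Runx1-deleted granulocyte-macrophage progenitors (GMP, CD16/32+ CD150-), and MEP and GMP of Runx1+/+ mice that also carried vav-Cre, here called wild type. Age and sex of the mice are not given, and nothing in the labels says whether the 2 libraries of a group came from separate animals, so p-values measure the spread between libraries only. XMP were sorted from Runx1-deleted marrow alone, so that no wild-type XMP enter the comparison.

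In haematopoiesis, MEP are the source of platelet-forming megakaryocytes and of red cells, and GMP are the source of granulocytes and macrophages. Runx1 encodes a DNA-binding transcription factor that megakaryocytes need for maturation, and that acts beside GATA and ETS family factors. The antibody against CD16/32 that separates GMP from MEP recognises Fc gamma receptors, which bind IgG: CD16 is the product of Fcgr3 and CD32 that of Fcgr2b.

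Read totals worked back from the RPKM values were 41850812 and 43586727 in XMP and 37345941 and 42326630 in Runx1-deleted MEP, with a range of 20849853 to 54912950 over all 10 libraries. Between 75.3% and 83.3% of these reads lay in genes. At this depth 1 read in a gene of 1 kb equalled 0.0239 and 0.0229 RPKM in XMP and 0.0268 and 0.0236 RPKM in Runx1-deleted MEP. Replicates correlated across genes at 0.987 in XMP and 0.985 in Runx1-deleted MEP. XMP replicate 2 was sequenced in lane 4 and the other 3 libraries in lane 5. Long genes were relatively higher in XMP: the median log2 fold change was 0.14 in the quintile of longest genes and -0.09 in that of shortest genes. Nothing in bulk libraries separates a change in transcript per cell from a change in the share of cells that hold it.

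Of the 10234 genes tested, 856 (8.36%) were called at a limma adjusted p under 0.05, 574 of them higher (5.61%) and 282 lower (2.76%) in XMP, and 2079 genes had an unadjusted p under 0.05. The higher genes were 67.1% of the calls, but the share depended on scaling, since it was 55.2% after quantile normalization and 53% after removal of the trend with gene length. The median log2 fold change of all genes tested was 0.04. The shares of 5.61% higher and 2.76% lower are the background for each list count below. Larger changes were mostly falls: 29 genes fell by at least 2 on the log2 scale and 8 by at least 3, while 10 rose by at least 2 and 0 by at least 3. The count of calls rested on all 4 libraries. It was 178 higher and 135 lower without XMP replicate 1, and 232 higher and 105 lower without XMP replicate 2, which leaves lane 5 alone on both sides. Without Runx1-deleted MEP replicate 1 it was 281 higher and 135 lower, and without replicate 2 it was 217 higher and 181 lower. When the spread was taken without wild-type MEP replicate 1, in which long genes were lowest relative to short ones, 985 were higher and 481 lower. Leaving out its replicate 2 instead gave 987 and 481. With no filter on low values, 52 of the 148 called genes chosen for naming lost the call.

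**Figure D1:**
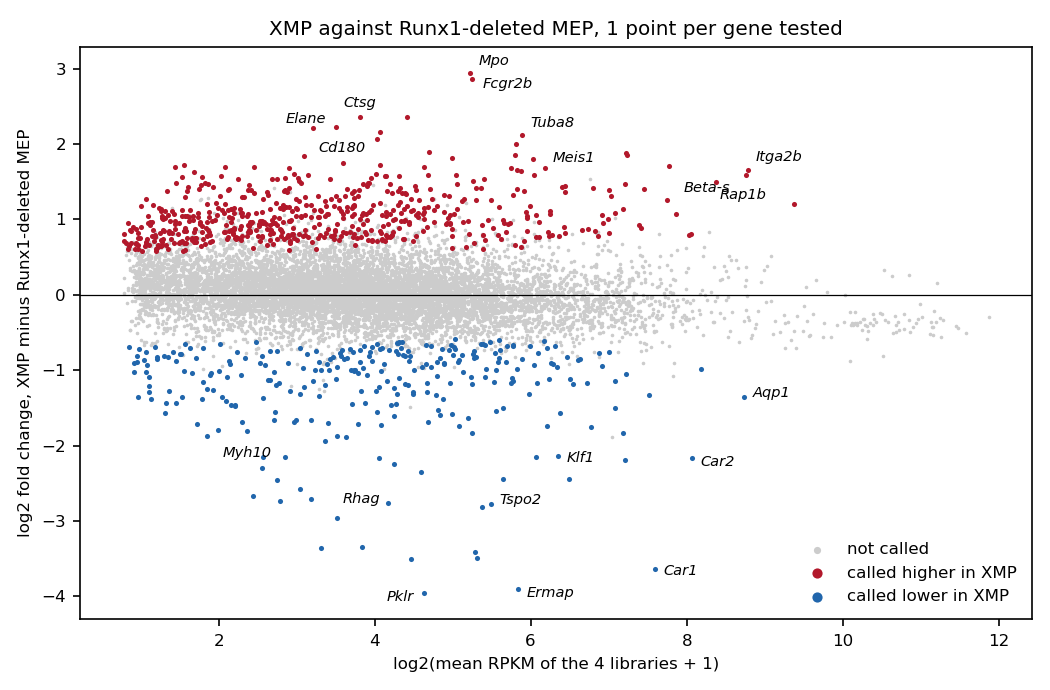
Each point is 1 of 10234 genes, with the mean level of XMP and Runx1-deleted MEP libraries as log2(RPKM + 1) on the x axis and the log2 fold change of XMP minus Runx1-deleted MEP on the y axis. Genes called by limma are red where higher in XMP (574) and blue where lower (282), and the blue points reach farther from 0, to -3.96 for Pklr, than the red ones, to 2.94 for Mpo.

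Of the 2 genes for the receptors of the gate, Fcgr2b was the abundant one in XMP. Fcgr2b, the inhibitory Fc gamma receptor, stood at 58.2 and 73.8 RPKM in XMP, against 7.29 and 9.13 RPKM in Runx1-deleted MEP. Both XMP libraries lay well above both MEP libraries, and at the level of Runx1-deleted GMP, which averaged 64.7 RPKM. The log2 fold change was 2.86 ± 0.20 (limma adjusted p = 7.34e-05). Fcgr3, the activating receptor, was 2.12 and 1.64 RPKM in XMP, against 0.752 and 0.576 RPKM in Runx1-deleted MEP. This gene passed the filter only through XMP, so it could only lie on the higher side. It was higher in XMP (log2 0.79 ± 0.19, adjusted p = 0.0273), but stayed far under the 59.7 RPKM of Runx1-deleted GMP, and the call was lost without any 1 of the 4 libraries (adjusted p 0.0856 to 0.224). Fcer1g, the signalling chain that activating Fc receptors need at the surface, rose as well (log2 1.11 ± 0.30, adjusted p = 0.0429; 0.0971 to 0.324 without XMP replicate 1 or either MEP library). Leaving out 1 library of Runx1-deleted GMP ended both calls (0.0529 to 0.0626), and 1 of wild-type GMP that of Fcer1g (0.0795 and 0.0796). Fcgr1 and Fcgr4 stayed under 1 RPKM in all 4 libraries and were not tested.

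CD150, which both gates required, showed no such gap. Slamf1, its gene, was 30.9 and 30.8 RPKM in XMP, against 24.7 and 29.9 RPKM in Runx1-deleted MEP (log2 0.18 ± 0.18, adjusted p = 0.689). Kit, the stem cell factor receptor, was 84.9 and 103 RPKM in XMP, against 110 and 138 RPKM in Runx1-deleted MEP, and Cd34, a glycoprotein of early progenitors and GMP, was 20.2 and 15.2 RPKM in XMP, against 20.5 and 17.9 RPKM in Runx1-deleted MEP. Neither was called (adjusted p = 0.386 for Kit and 0.819 for Cd34). Of the 5 genes given as markers of the comparison with earlier results in view, Fcgr2b, Itga2b and Meis1 were higher and Ermap and Car1 lower in XMP.

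Runx1 transcript did not check the deletion, because the level of the whole gene says nothing about a single exon. It was 85.9 and 78.5 RPKM in XMP, against 41.5 and 36.8 RPKM in Runx1-deleted MEP, so that the groups lay apart. All 4 core members of the RUNX list rose: Runx1 (log2 1.05 ± 0.20, adjusted p = 0.00787), Runx2 (1.03 ± 0.23, adjusted p = 0.0186), Runx3 (0.64 ± 0.17, adjusted p = 0.0404) and the shared partner subunit Cbfb (0.64 ± 0.17, adjusted p = 0.0396). Each of these calls was lost when 1 library was left out. For Runx1 the adjusted p was then 0.0703 without XMP replicate 1 and 0.0598 without MEP replicate 2, and for Runx2, Runx3 and Cbfb it lay between 0.0601 and 0.307 without any 1 of the 4. Runx3 and Cbfb also lost it without 1 of the GMP libraries (0.0575 to 0.0873), which only inform the spread. Of 12 members tested, 4 rose and 0 fell, against 5.61% and 2.76% of all genes tested, with a median log2 fold change of 0.23.

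Some megakaryocyte and platelet genes were higher in XMP. On 5 lists that cover this lineage, 102 genes were tested, of which 39 rose and 1 fell, with a median log2 fold change of 0.67. Over all genes tested, 5.61% were called higher and 2.76% lower. The 39 became 19 to 26 without 1 of the 4 libraries compared and 35 to 50 without 1 of the other 6. For Itga2b, Meis1, Treml1, F2r, Rap1b and Rgs18, XMP held the highest mean level of all 5 groups of the series, above wild-type MEP as well.

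Among 23 megakaryocyte regulators tested, 7 rose and 0 fell, with a median of 0.39. Without either XMP library 3 were called, and 4 and 5 without MEP replicate 1 and 2. Meis1, a homeobox factor of stem cells and megakaryocytes, was 113 and 106 RPKM in XMP, against 35.0 and 31.9 RPKM in Runx1-deleted MEP (log2 1.68 ± 0.18, adjusted p = 0.000457). The replicates of each group lay close together, and the groups were far apart. The ETS family factor Fli1, a regulator of late megakaryocyte genes, was 23.9 and 22.7 RPKM in XMP, against 7.73 and 6.26 RPKM in Runx1-deleted MEP (log2 1.61 ± 0.31, adjusted p = 0.00947; 0.0511 to 0.0694 without either XMP library or MEP replicate 2). Its relatives Erg (log2 1.17 ± 0.26, adjusted p = 0.0193) and Etv6 (log2 1.06 ± 0.22, adjusted p = 0.0132) rose as well, but lost the call without either XMP library or MEP replicate 1 (0.0598 to 0.155).

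Factors of the GATA side of the same network were not called. Gata1, the factor shared by red cells and megakaryocytes, was 123 and 105 RPKM in XMP, against 127 and 120 RPKM in Runx1-deleted MEP (log2 -0.12 ± 0.22, adjusted p = 0.849). Gata2 was 161 and 159 RPKM in XMP, against 101 and 120 RPKM in Runx1-deleted MEP, its cofactor Zfpm1 180 and 124 RPKM against 120 and 81.3 RPKM, and Tal1 78.2 and 71.1 RPKM against 68.9 and 67.5 RPKM. The adjusted p of these 4 genes ran from 0.172 to 0.849. Gfi1b, a repressor needed for both lineages, was 91.6 and 62.6 RPKM in XMP, against 118 and 118 RPKM in Runx1-deleted MEP (adjusted p = 0.193). Nfe2, which drives platelet release, was 216 and 210 RPKM in XMP, against 176 and 206 RPKM in Runx1-deleted MEP (adjusted p = 0.787).

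Of 20 platelet adhesion receptors and integrins tested, 7 rose and 0 fell, and the median was 0.80. The count was 3 without XMP replicate 1 or MEP replicate 2, and 12 without either wild-type MEP library. Their summed level was 1965 and 1702 RPKM in XMP, against 870 and 774 RPKM in Runx1-deleted MEP, with 522 and 600 RPKM in wild-type MEP. Itga2b, the alpha chain of the fibrinogen receptor and the gene for CD41, made up much of it at 652 and 682 RPKM in XMP, against 218 and 203 RPKM in Runx1-deleted MEP. The replicates differed little, and the difference was log2 1.66 ± 0.19 (adjusted p = 0.000565), in 2 gates that were both set to CD41-. Its beta chain gene Itgb3 was 98.4 and 74.8 RPKM in XMP, against 46.5 and 40.7 RPKM in Runx1-deleted MEP, and was not called (log2 0.96 ± 0.34, adjusted p = 0.127). That outcome depended on the setting, since limma called Itgb3 with quantile normalization (adjusted p = 0.0469) and with only the groups compared (0.0448). Treml1, a receptor stored in platelet granules, was 339 and 267 RPKM in XMP, against 129 and 121 RPKM in Runx1-deleted MEP (log2 1.26 ± 0.21, adjusted p = 0.00391). Subunits of the von Willebrand factor receptor rose: Gp9 (140 and 107 RPKM in XMP, against 52.6 and 41.8 RPKM in Runx1-deleted MEP, adjusted p = 0.00901) and Gp5 (162 and 129 RPKM against 89.9 and 78.6 RPKM, adjusted p = 0.0223). Gp9 lost its call without XMP replicate 1 (0.0865) or MEP replicate 2 (0.0722), and Gp5 without any 1 of the 4 libraries (0.0511 to 0.219). Gp1ba, the ligand-binding subunit, was 38.4 and 29.3 RPKM in XMP, against 22.2 and 20.9 RPKM in Runx1-deleted MEP (adjusted p = 0.167).

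Platelet signalling and eicosanoid genes had the largest share of calls among these lists. Of 27 tested, 17 rose and 0 fell, all 27 had a positive fold change, and the median was 0.995. Without 1 of the 4 libraries compared, 10 to 12 were called, and 15 to 18 without 1 of the other 6. F2r, a thrombin receptor gene, was 325 and 306 RPKM in XMP, against 143 and 158 RPKM in Runx1-deleted MEP (log2 1.07 ± 0.17, adjusted p = 0.00357). Rap1b, the small GTPase through which platelet integrins are activated, was 564 and 414 RPKM in XMP, against 196 and 148 RPKM in Runx1-deleted MEP (log2 1.5 ± 0.22, adjusted p = 0.00218). Mrvi1, a target of the nitric oxide and cGMP pathway that holds platelets at rest, was 36.6 and 37.0 RPKM in XMP, against 10.3 and 11 RPKM in Runx1-deleted MEP (log2 1.70 ± 0.25, adjusted p = 0.0024). Genes that activate and genes that restrain platelets were thus both on the higher side. The thromboxane pathway rose at 2 of its steps, with Ptgs1, the cyclooxygenase of platelets, at 33.1 and 31.5 RPKM in XMP, against 12.6 and 10.8 RPKM in Runx1-deleted MEP (log2 1.39 ± 0.17, adjusted p = 0.000996), and Tbxas1, thromboxane synthase, at 55.7 and 52.8 RPKM, against 23.3 and 21.1 RPKM (log2 1.26 ± 0.17, adjusted p = 0.00133). The kinase Syk (log2 1.18 ± 0.20, adjusted p = 0.00412), phospholipase Plcg2 (log2 1.26 ± 0.20, adjusted p = 0.00317) and Rgs18, an inhibitor of G protein signalling (log2 1.44 ± 0.19, adjusted p = 0.00133), rose too.

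Of 18 platelet granule and secretory genes tested, 5 rose and 0 fell, with a median of 0.68. The count was 1 to 3 without 1 of the 4 libraries compared, 8 without either wild-type MEP library and 9 with quantile normalization. Pdgfb, a growth factor stored in alpha granules, was 21.7 and 20.2 RPKM in XMP, against 7.89 and 6.34 RPKM in Runx1-deleted MEP (log2 1.44 ± 0.19, adjusted p = 0.00115). Pf4, a chemokine packed in alpha granules, was 349 and 157 RPKM in XMP, against 220 and 158 RPKM in Runx1-deleted MEP. Its groups overlapped and it was not called (log2 0.33 ± 0.48, adjusted p = 0.804). Ppbp, another granule chemokine, was 48.6 and 17.5 RPKM in XMP, against 57.2 and 42.5 RPKM in Runx1-deleted MEP (adjusted p = 0.682), and Vwf was 34.9 and 26.3 RPKM in XMP, against 17.9 and 14.4 RPKM in Runx1-deleted MEP (adjusted p = 0.108). Thbs1, thrombospondin, was 182 and 140 RPKM in XMP, against 57.2 and 51.2 RPKM in Runx1-deleted MEP, just beyond the threshold (log2 1.54 ± 0.43, adjusted p = 0.0517).

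The cytoskeletal list split by gene. Of 17 actomyosin and tubulin genes tested, 4 rose and 1 fell, with a median of 0.38. The rises numbered 2 without XMP replicate 1, MEP replicate 2 or either wild-type GMP library. Tuba8, an alpha tubulin of platelets, was 95.7 and 95.2 RPKM in XMP, against 21.0 and 21.3 RPKM in Runx1-deleted MEP (log2 2.12 ± 0.15, adjusted p = 7.34e-05). Wild-type MEP averaged 90.9 RPKM. Zyx, a focal adhesion protein, was 234 and 197 RPKM in XMP, against 77.3 and 77.1 RPKM in Runx1-deleted MEP (log2 1.46 ± 0.20, adjusted p = 0.00155). Myh10, the non-muscle myosin heavy chain that RUNX1 is known to repress as megakaryocytes become polyploid, fell: it was 2.18 and 1.01 RPKM in XMP, against 14.8 and 6.98 RPKM in Runx1-deleted MEP (log2 -2.15 ± 0.35, adjusted p = 0.00391). Wild-type MEP averaged 4.42 RPKM, between the values of the Runx1-deleted groups. Tubb1, the beta tubulin of platelets, was 18.3 and 13.3 RPKM in XMP, against 12.2 and 11.4 RPKM in Runx1-deleted MEP (adjusted p = 0.676).

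**Figure D2:**
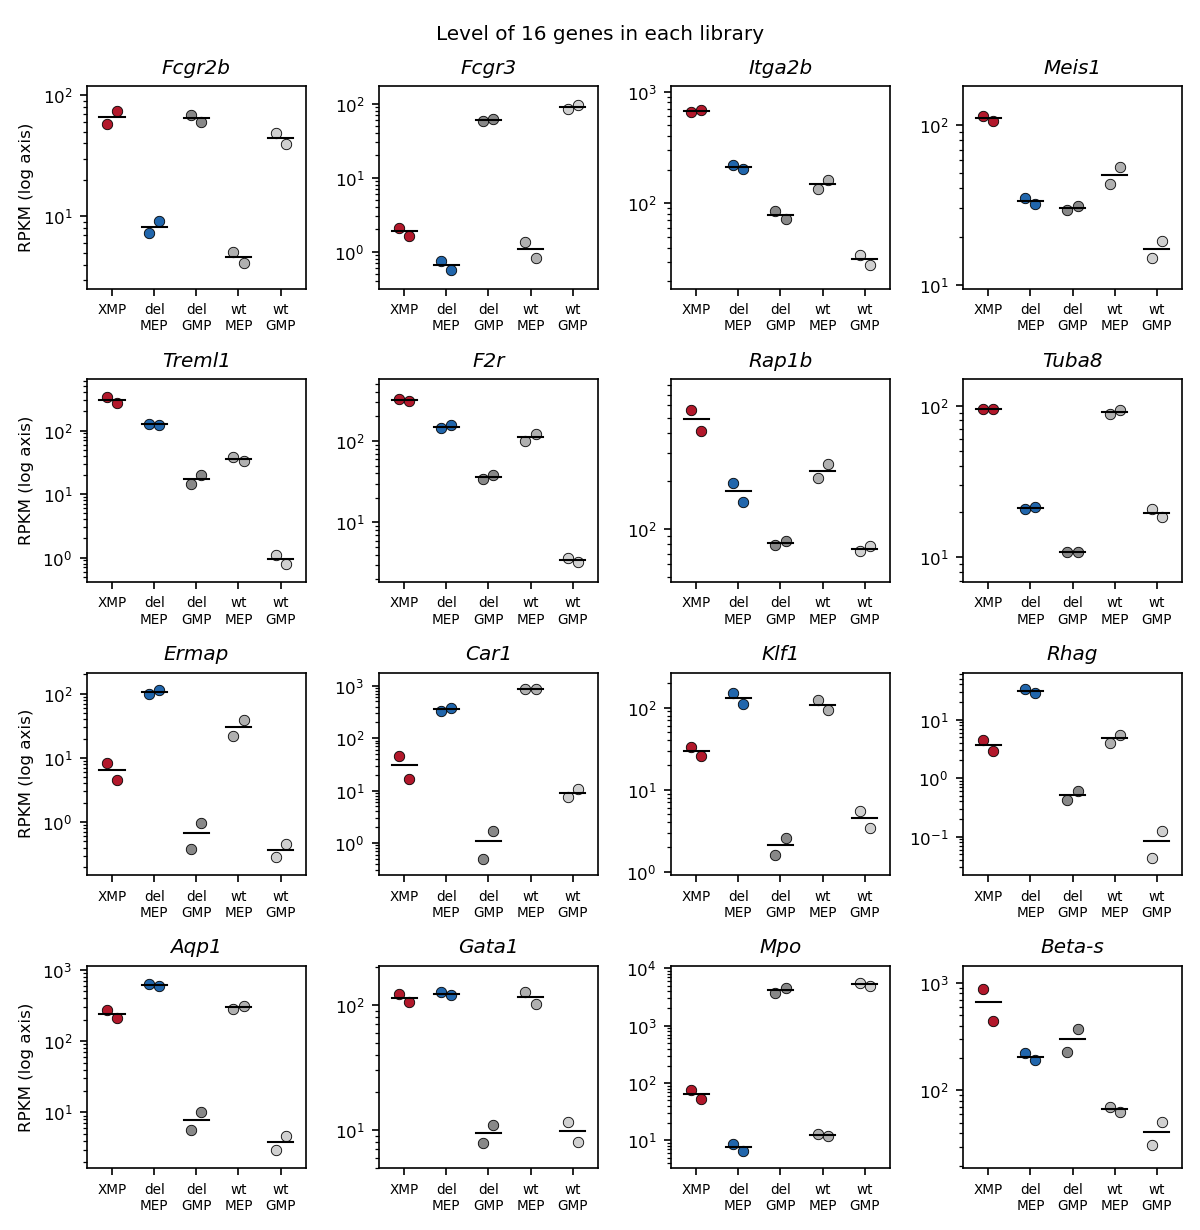
RPKM on a log axis for 16 genes in XMP, Runx1-deleted MEP and GMP (del) and wild-type MEP and GMP (wt), with 1 point per library and a bar at the mean of 2. XMP lie highest for Itga2b, Meis1, Treml1, F2r and Rap1b, at the level of Runx1-deleted GMP for Fcgr2b but not for Fcgr3 or Mpo, and under Runx1-deleted MEP for Ermap, Car1, Klf1, Rhag and Aqp1.

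A part of the stem and multipotent progenitor list rose with these genes. Of 34 tested, 10 rose and 0 fell, and the median was 0.46, with 5 called without XMP replicate 1. Meis1, Erg, Angpt1 and Esam are among those that also stand on the megakaryocyte and platelet lists. Among the others, Mycn was 49.9 and 44.7 RPKM in XMP, against 22.1 and 12.2 RPKM in Runx1-deleted MEP (log2 1.47 ± 0.26, adjusted p = 0.00506). Tek, the receptor for angiopoietin, was 29.2 and 24.9 RPKM in XMP, against 11.7 and 10.3 RPKM in Runx1-deleted MEP (log2 1.23 ± 0.21, adjusted p = 0.00467; 0.0582 without XMP replicate 1). Its ligand Angpt1 (log2 1.59 ± 0.31, adjusted p = 0.010) and its relative Tie1 (log2 1.44 ± 0.25, adjusted p = 0.00506) rose too, but lost the call without XMP replicate 1 (0.0563 and 0.0561), Angpt1 also without XMP replicate 2 or MEP replicate 1 (0.0548 and 0.0704) and Tie1 without MEP replicate 2 (0.0503). Kdr, a receptor for vascular endothelial growth factor, stands on the stromal and endothelial list instead. It was 24.1 and 18.9 RPKM in XMP, against 7.28 and 6.73 RPKM in Runx1-deleted MEP (log2 1.48 ± 0.18, adjusted p = 0.00091). Cdh5, the cadherin that defines endothelial cells, stayed under the level for testing. Of the 34 stem cell list members tested, 28 had a positive and 6 a negative fold change, Ly6a among the latter. Procr, too low for testing, was 0.191 and 0.0458 RPKM in XMP, against 0.961 and 0.236 RPKM in Runx1-deleted MEP. Mecom, untested too, was 0.295 and 0.1 RPKM against 0.608 and 0.361 RPKM, while other untested members went either way.

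To show the DNA in front of genes at either end of the comparison, promoter windows of 250 bases before the start are given for a pair of platelet genes that rose (Itga2b, Treml1) and a pair of red cell genes that fell (Ermap, Rhag), from RefSeq with build GRCm38.p6, 5′ to 3′ on the strand of the gene. Capitals mark GATA letters (AGATAA or TGATAA), ETS letters (CGGAAG or AGGAAG) and RUNX letters (TGTGGT or TGCGGT) on either strand, none of which overlap here.
Itga2b, chr11:102469884-102470133, minus strand: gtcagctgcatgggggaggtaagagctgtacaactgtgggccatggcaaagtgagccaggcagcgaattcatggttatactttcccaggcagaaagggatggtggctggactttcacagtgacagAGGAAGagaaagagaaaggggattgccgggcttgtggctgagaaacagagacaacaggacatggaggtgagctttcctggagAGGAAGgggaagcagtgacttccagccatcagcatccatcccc
Treml1, chr17:48359666-48359915, plus strand: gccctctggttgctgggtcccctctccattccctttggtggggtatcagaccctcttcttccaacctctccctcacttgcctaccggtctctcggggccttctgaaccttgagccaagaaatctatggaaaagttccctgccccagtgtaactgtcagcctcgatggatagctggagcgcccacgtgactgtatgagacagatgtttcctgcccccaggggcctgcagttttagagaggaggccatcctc
Ermap, chr4:119189996-119190245, minus strand: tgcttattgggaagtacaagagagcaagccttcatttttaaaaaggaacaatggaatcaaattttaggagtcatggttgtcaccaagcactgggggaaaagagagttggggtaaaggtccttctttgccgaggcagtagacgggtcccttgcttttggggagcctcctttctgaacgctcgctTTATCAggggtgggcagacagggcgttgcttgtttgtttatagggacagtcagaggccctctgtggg
Rhag, chr17:40810899-40811148, plus strand: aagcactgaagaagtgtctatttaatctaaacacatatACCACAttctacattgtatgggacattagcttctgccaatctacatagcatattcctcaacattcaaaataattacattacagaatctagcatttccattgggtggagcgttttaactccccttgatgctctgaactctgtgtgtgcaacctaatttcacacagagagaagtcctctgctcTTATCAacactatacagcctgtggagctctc
The windows of Ermap and Rhag held 1 GATA match each and that of Rhag 1 RUNX match, that of Itga2b held 2 ETS matches, and that of Treml1 held no match. GATA letters occurred in 12.1% of 461 windows of genes higher in XMP and in 12.8% of 226 windows of lower genes, against 8.89% of the 8327 windows of genes tested. ETS letters occurred in 45.1% of the windows of higher and in 35.0% of those of lower genes, against 48.4% of those of genes tested. RUNX letters occurred in 20.4% of the windows of higher and in 18.6% of those of lower genes, against 17.5% of those of genes tested. Over all 32851 windows of the table the shares were 16.6% for GATA, 39.2% for ETS and 18.6% for RUNX. A match is a description of letters and not a binding site.

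Genes of red cell identity fell most. Of 28 erythroid regulators and receptors tested, 12 fell and 1 rose, with a median of -0.58, with 8 or 9 called lower without 1 of the 4 libraries compared. Klf1, the master transcription factor of red cell genes, was 33 and 25.6 RPKM in XMP, against 153 and 112 RPKM in Runx1-deleted MEP (log2 -2.13 ± 0.26, adjusted p = 0.000909). Epor, the erythropoietin receptor, was 6.18 and 6.12 RPKM in XMP, against 13.8 and 12.7 RPKM in Runx1-deleted MEP (log2 -0.99 ± 0.16, adjusted p = 0.00397). Both genes remained above Runx1-deleted GMP, where Klf1 averaged 2.11 RPKM and Epor 0.258 RPKM. Tfrc, the transferrin receptor that imports iron, was 15.2 and 15.2 RPKM in XMP, against 37.9 and 44.8 RPKM in Runx1-deleted MEP (log2 -1.38 ± 0.36, adjusted p = 0.0373; 0.111 to 0.165 without any 1 of the 4 libraries and 0.0783 to 0.0785 without 1 of wild-type GMP). The exception was Cited2, a coactivator-binding protein that stem cells need, at 178 and 146 RPKM in XMP, against 62.2 and 57.0 RPKM in Runx1-deleted MEP (log2 1.42 ± 0.17, adjusted p = 0.00091).

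Early surface and enzyme markers of the red cell lineage showed the widest gaps. Ermap, an erythroid membrane protein, was 8.36 and 4.48 RPKM in XMP, against 99.1 and 114 RPKM in Runx1-deleted MEP (log2 -3.90 ± 0.31, adjusted p = 7.34e-05). Car1, carbonic anhydrase, was 46.2 and 16.3 RPKM in XMP, against 334 and 375 RPKM in Runx1-deleted MEP (log2 -3.63 ± 0.40, adjusted p = 0.000457). Car2, its relative, was 127 and 69.6 RPKM in XMP, against 529 and 340 RPKM in Runx1-deleted MEP (log2 -2.16 ± 0.31, adjusted p = 0.00216). XMP replicate 2 was the lowest of the 4 libraries for all 3 genes, and the groups lay far apart. Pklr, the pyruvate kinase of red cells and liver, had the largest fall of all genes called with at least 5 RPKM in Runx1-deleted MEP, at 3.97 and 0.721 RPKM in XMP, against 53.5 and 36.8 RPKM (log2 -3.96 ± 0.44, adjusted p = 0.000482). The sodium pump subunit Atp1b2 (log2 -3.42 ± 0.28), the amino acid transporter Slc38a5 (-2.81 ± 0.25), the metallothionein Mt2 (-2.96 ± 0.26), the lipid kinase Sphk1 (-3.35 ± 0.32) and the claudin Cldn13 (-3.35 ± 0.35) fell likewise (adjusted p 8.51e-05 to 0.000317).

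Of 22 red cell membrane genes tested, 11 fell and 4 rose, with a median of -0.78. The falls numbered 10 or 11 without 1 of the 4 libraries compared, and the rises 2 without XMP replicate 1 or MEP replicate 2. The Rh proteins fell: Rhag, an ammonia channel subunit, was 4.46 and 2.92 RPKM in XMP, against 32.5 and 28.2 RPKM in Runx1-deleted MEP (log2 -2.76 ± 0.21, adjusted p = 7.34e-05), and Rhd fell by 3.50 on the log2 scale (± 0.37, adjusted p = 0.000361). The Kell blood group gene Kel was 1.28 and 1.43 RPKM in XMP, against 11.5 and 14.7 RPKM in Runx1-deleted MEP (log2 -2.58 ± 0.20, adjusted p = 7.34e-05). The skeleton genes Ank1, which anchors the anion exchanger, and Add2, an adducin, fell to 1.87 and 0.889 RPKM and to 1.12 and 0.419 RPKM in XMP, against 19.0 and 10.6 RPKM and 14.5 and 7.60 RPKM in Runx1-deleted MEP (adjusted p = 0.000531 for Ank1 and 0.000772 for Add2). Aqp1, the water channel, fell to 272 and 209 RPKM in XMP, against 624 and 601 RPKM in Runx1-deleted MEP, and stayed near the 296 RPKM of wild-type MEP (log2 -1.36 ± 0.25, adjusted p = 0.00727; 0.0672 without XMP replicate 2).

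A smaller set of late red cell genes went the other way. Slc4a1, the anion exchanger of the mature red cell, was 4.50 and 4.18 RPKM in XMP, against 0.865 and 1.0 RPKM in Runx1-deleted MEP (log2 1.47 ± 0.17, adjusted p = 0.000566). Alas2, the erythroid enzyme that starts heme synthesis, was 8.79 and 4.71 RPKM in XMP, against 1.73 and 1.70 RPKM in Runx1-deleted MEP (log2 1.46 ± 0.25, adjusted p = 0.00466). The beta globin transcript Beta-s was 872 and 445 RPKM in XMP, against 222 and 191 RPKM in Runx1-deleted MEP (log2 1.59 ± 0.34, adjusted p = 0.0153). These 3 genes were higher in both XMP libraries, with replicate 1 above replicate 2. Hba-a1 and Hba-a2, near-identical copies whose reads cannot be assigned with certainty, gave log2 1.85 ± 0.36 (adjusted p = 0.00901) and 1.88 ± 0.36 (adjusted p = 0.00814). All 3 globin calls were lost without XMP replicate 1 (adjusted p 0.0702 to 0.129) or MEP replicate 2 (0.0571 to 0.0889), and Beta-s also without MEP replicate 1 (0.0551). The summed globin level was 1585 and 793 RPKM in XMP, against 378 and 325 RPKM in Runx1-deleted MEP. It was 412 and 710 RPKM in Runx1-deleted GMP, 131 and 123 RPKM in wild-type MEP and 55 and 93.1 RPKM in wild-type GMP. Globin transcripts were therefore highest in XMP and also higher in the deleted GMP, where Klf1 averaged 2.11 RPKM, than in either wild-type group; the part of RNA from other cells in this was not tested.

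Some heme and iron genes fell too. Of 20 tested, 7 fell and 1 (Alas2) rose, with a median of -0.62, with 4 to 7 called lower without 1 of the 4 libraries compared and 11 without either wild-type MEP library. Alad, the second enzyme of heme synthesis, was 29.1 and 17.5 RPKM in XMP, against 81.9 and 56.0 RPKM in Runx1-deleted MEP (log2 -1.54 ± 0.25, adjusted p = 0.00391). Cpox, a later enzyme, was 36.0 and 30.1 RPKM in XMP, against 128 and 97.8 RPKM in Runx1-deleted MEP (log2 -1.73 ± 0.23, adjusted p = 0.00126). Slc11a2, which carries iron out of endosomes, was 11.7 and 11.7 RPKM in XMP, against 25.2 and 27.2 RPKM in Runx1-deleted MEP (log2 -1.10 ± 0.17, adjusted p = 0.00297). Fech, which inserts the iron, was 17.9 and 13.6 RPKM in XMP, against 31.1 and 23.6 RPKM in Runx1-deleted MEP and lay just beyond the threshold (adjusted p = 0.0517). Within the pathway, the erythroid form of the first enzyme was higher and the called later enzymes were lower.

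**Figure D3:**
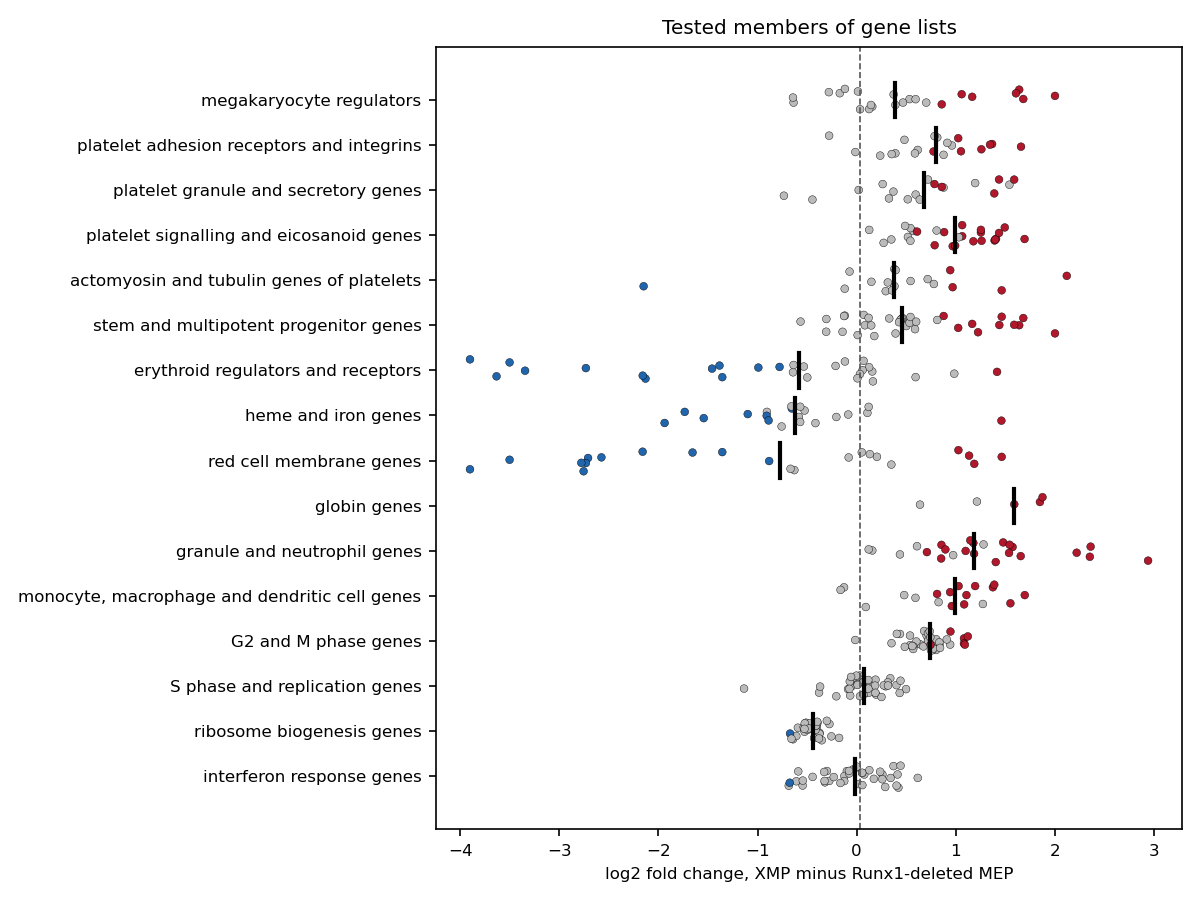
Log2 fold change of XMP minus Runx1-deleted MEP for the tested members of 16 gene lists, with 1 point per gene, red where called higher, blue where called lower and grey where not called. The black bar is the median of the list and the dashed line that of all 10234 genes (0.04). Platelet and myeloid lists lie to the right of the line, the regulator, heme and membrane lists of red cells to the left, with globins on the right.

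Most of the myeloid genes called were higher in XMP, at levels that were often a small part of those in GMP. Of 24 granule and neutrophil genes tested, 18 rose and 0 fell, with a median of 1.18. The count was 10 without XMP replicate 1, 11 without MEP replicate 2, and 12 and 13 without MEP replicate 1 and XMP replicate 2. Mpo, myeloperoxidase, was 76.9 and 53.8 RPKM in XMP, against 8.73 and 6.42 RPKM in Runx1-deleted MEP (log2 2.94 ± 0.23, adjusted p = 7.34e-05). Elane, neutrophil elastase, was 18 and 17.4 RPKM in XMP, against 3.09 and 2.93 RPKM in Runx1-deleted MEP (log2 2.22 ± 0.25, adjusted p = 0.000566). The cathepsin gene Ctsg was 24.9 and 20.1 RPKM in XMP, against 3.93 and 3.25 RPKM in Runx1-deleted MEP (log2 2.35 ± 0.18, adjusted p = 7.34e-05). These 3 proteins fill the primary granules of neutrophils. In Runx1-deleted GMP, Mpo averaged 4140 RPKM, Elane 1130 RPKM and Ctsg 1400 RPKM. Cebpe (1.34 RPKM in XMP, 0.292 RPKM in Runx1-deleted MEP), Clec12a (1.61 and 0.4 RPKM) and Hp (2.25 and 0.457 RPKM) passed the filter only through XMP. Such members were bound to lie on the higher side, so the absence of falls is partly set by the filter. The summed level, which includes members not tested, came to 547 and 492 RPKM in XMP, against 174 and 170 RPKM in Runx1-deleted MEP. It was 8995 and 9224 RPKM in Runx1-deleted GMP. The filter also bears on the next list, where Ctss (3.41 RPKM in XMP, 0.624 RPKM in Runx1-deleted MEP) and Csf1r (1.93 and 0.623 RPKM) passed through XMP. An absence of falls is partly set by the filter there too. Of 18 monocyte, macrophage and dendritic cell genes tested, 11 rose and 0 fell (median 0.996), but 0 were called without XMP replicate 1 and 6 to 9 without another of the 4 libraries.

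To set these levels on the scale of GMP, the excess of XMP over Runx1-deleted MEP was expressed as a percentage of the excess of Runx1-deleted GMP over the same MEP, for 52 myeloid and Fc receptor genes with at least 10 RPKM in Runx1-deleted GMP and at least 4 times the level of Runx1-deleted MEP. The 52 had also passed the filter on XMP and Runx1-deleted MEP, so members low in both groups were absent. Gfi1, for example, was 28.7 and 27.3 RPKM in Runx1-deleted GMP, against 0.551 and 0.353 RPKM in XMP. The median and the counts thus leave out genes of this kind. This selection was made after the values were seen and is a description. The median was 8.89%, with 22 genes under 5%, 17 from 5% to 20% and 13 at 20% or more. The 4 genes with the highest level in Runx1-deleted GMP lay close together, with 1.4% for Mpo, 1.30% for Elane, 1.36% for Ctsg and 2.15% for Prtn3, and Fcgr3 stood beside them at 2.06%. Others lay far above that level in both XMP libraries. Fcgr2b reached 88.6% and 116%, Csf2rb, the shared beta chain of the IL-3, IL-5 and GM-CSF receptors, 31.6% and 59.4%, Lyz2, a lysozyme gene, 65.2% and 36.5%, and Cst7, an inhibitor of cathepsins, 32.6% and 39.1%. Cebpa, the factor that GMP depend on, stood at 3.77%. What part cells from the GMP gate had in these values was not tested.

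**Figure D4:**
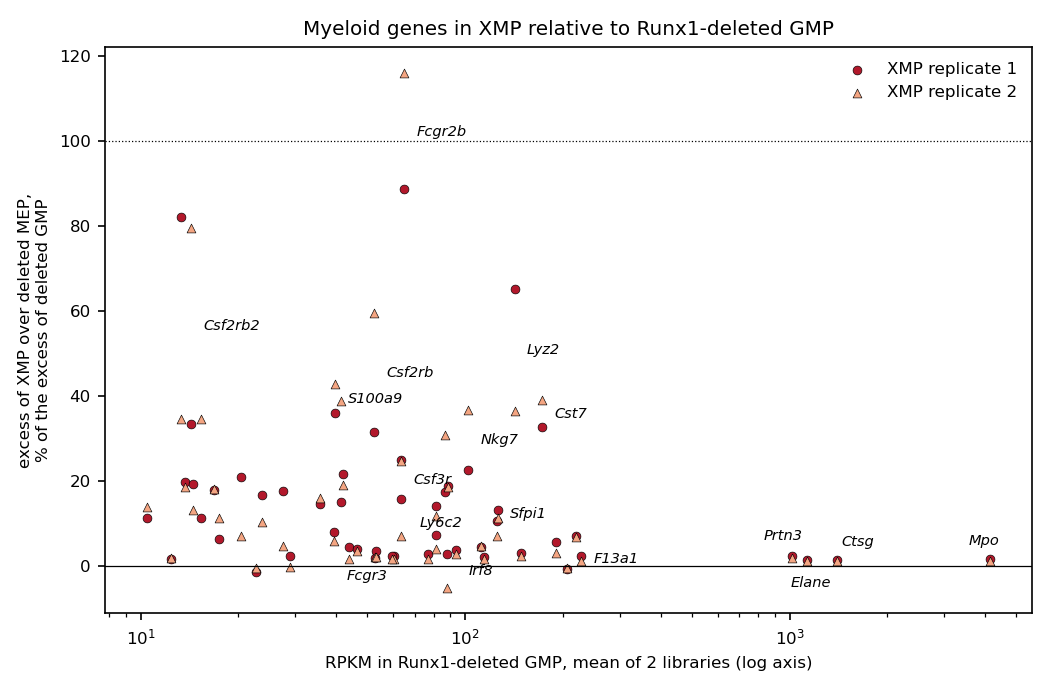
For 52 genes, the excess of each XMP library over the mean of Runx1-deleted MEP as a percentage of the excess of Runx1-deleted GMP over the same mean, against the level in Runx1-deleted GMP on a log axis. Names stand beside the mean of the 2 libraries. The 4 genes with the highest level lie between 1.30% and 2.15%, whereas Fcgr2b lies at 102%. Lyz1, which is not labelled, Csf2rb2, Lyz2 and Csf2rb lie between 45.5% and 58.3%.

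For genes with large percentages, the limma values rest on the same XMP and Runx1-deleted MEP libraries and are no separate evidence. Cxcr2 and Cd180, given with them, are not among the 52 genes. Csf2rb was 20 and 33.1 RPKM in XMP, against 4.64 and 5.31 RPKM in Runx1-deleted MEP (log2 2.17 ± 0.23, adjusted p = 0.000325), and its paralog Csf2rb2, which serves the IL-3 receptor and shares sequence with it, rose by log2 1.54 ± 0.26 (adjusted p = 0.00438). Lyz2 was 102 and 68.6 RPKM in XMP, against 32.3 and 20.6 RPKM in Runx1-deleted MEP (log2 1.66 ± 0.26, adjusted p = 0.00344). Cst7 was 76.9 and 86.1 RPKM in XMP, against 26.6 and 34 RPKM in Runx1-deleted MEP (log2 1.41 ± 0.19, adjusted p = 0.0015). Nkg7, a granule membrane protein best known from killer lymphocytes, was 27.9 and 41.5 RPKM in XMP, against 4.08 and 8.11 RPKM in Runx1-deleted MEP (log2 2.36 ± 0.31, adjusted p = 0.00115). Wild-type MEP averaged 150 RPKM of Nkg7, more than either group of this comparison. Cxcr2, a chemokine receptor of neutrophils, was 15.6 and 12.9 RPKM in XMP, against 2.29 and 2.26 RPKM in Runx1-deleted MEP and 12.8 RPKM on average in Runx1-deleted GMP (log2 2.21 ± 0.18, adjusted p = 8.51e-05). Cd180, a toll-like receptor relative, was 25.9 and 24.6 RPKM in XMP, against 5.24 and 5.35 RPKM in Runx1-deleted MEP, and exceeded the 11 RPKM of Runx1-deleted GMP (log2 2.06 ± 0.20, adjusted p = 0.000202).

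Of 24 myeloid regulators and cytokine receptors tested, 7 rose and 3 fell, with a median of 0.66. Cebpa and Cebpe (1.34 RPKM in XMP, 0.292 RPKM in Runx1-deleted MEP) passed the filter only through XMP, so they could only lie on the higher side. The summed level of the list, which includes members not tested, was lower in XMP, at 432 and 463 RPKM, against 596 and 584 RPKM in Runx1-deleted MEP. Without 1 of the 4 libraries compared, 3 or 4 were called higher and 0 or 1 lower, and without either wild-type MEP library 11 higher and 4 lower. Cebpa was 2.69 and 2.44 RPKM in XMP, against 0.842 and 0.859 RPKM in Runx1-deleted MEP (log2 0.95 ± 0.18, adjusted p = 0.00751; 0.0762 without XMP replicate 1), and Sfpi1, which encodes PU.1, 27.9 and 25.9 RPKM against 12.4 and 13.6 RPKM (log2 0.99 ± 0.21, adjusted p = 0.0141; 0.0548 to 0.0991 without any 1 of the 4 libraries). Myc (log2 -1.05 ± 0.23, adjusted p = 0.0172) and Ikzf1, which encodes Ikaros (-0.78 ± 0.19, adjusted p = 0.0286), fell, both with an adjusted p of 0.0514 to 0.176 without any 1 of the 4, and Ikzf1 with 0.0609 without 1 of Runx1-deleted GMP. Of 19 mast cell, basophil and eosinophil genes tested, 7 rose and 1 fell, with 3 to 6 higher and 1 lower without 1 of the 4 libraries compared. Cpa3, a mast cell protease, was 26.1 and 25.9 RPKM in XMP, against 7.32 and 15.8 RPKM in Runx1-deleted MEP (log2 1.19 ± 0.28, adjusted p = 0.0245; 0.109 to 0.166 without either XMP library or MEP replicate 1), and the tryptase genes Tpsab1 and Tpsb2 had 0 reads in all 4 libraries. Of 31 lymphoid genes in the file, 4 were tested, of which Lat, also a platelet signalling adaptor, and Cd79b rose, and of 7 stromal and endothelial genes tested Kdr, Vcam1 and Tie1 rose and Plvap fell. Lat and Plvap lost the call without any 1 of the 4 libraries compared (adjusted p 0.0514 to 0.0985 for Lat and 0.0709 to 0.139 for Plvap), Vcam1 without XMP replicate 1 (0.105) or MEP replicate 2 (0.0797), and Cd79b without XMP replicate 1 (0.0592).

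Of 38 genes of G2 and M phase tested, 6 rose and 0 fell, 37 had a positive fold change, and the median was 0.74. Their summed level was 1560 and 1168 RPKM in XMP, against 999 and 672 RPKM in Runx1-deleted MEP, with replicate 1 the higher in both groups. The count depended on single libraries and on scaling: 0 were called without XMP replicate 1 or MEP replicate 2, 2 without XMP replicate 2, 15 without MEP replicate 1, 14 without either wild-type MEP library and 16 with the length trend removed. Prc1, which bundles microtubules of the spindle midzone, was 41.2 and 31 RPKM in XMP, against 20.1 and 12.5 RPKM in Runx1-deleted MEP (log2 1.12 ± 0.27, adjusted p = 0.0279; 0.0582 to 0.201 without either XMP library or MEP replicate 2). Fam64a, a mitotic regulator outside the list, was 44.8 and 34.7 RPKM in XMP, against 12.1 and 8.12 RPKM in Runx1-deleted MEP (log2 1.89 ± 0.22, adjusted p = 0.000565). Of 40 S phase and replication genes tested, 0 were called by limma at an adjusted p under 0.05 and 1 had an unadjusted p under 0.05, and their median was 0.08.

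All 31 ribosome biogenesis genes tested had a negative fold change, with a median of -0.44, and 1 fell (Wdr12, log2 -0.67 ± 0.15, adjusted p = 0.0211; 0.0685 to 0.151 without any 1 of the 4 libraries and 0.0562 or 0.0564 without 1 of Runx1-deleted GMP). Their summed level was 2198 and 1920 RPKM in XMP, against 3249 and 2621 RPKM in Runx1-deleted MEP. For 25 of them both XMP libraries lay under both MEP libraries, against 20.9% of all genes tested. All 38 cytosolic ribosomal protein genes were negative as well, with a median of -0.37. Limma called 0 of them (2 had an unadjusted p under 0.05), and 37 did not overlap. With the length trend removed, 18 biogenesis and 4 ribosomal protein genes were called lower. Of 40 interferon response genes tested, limma called 0 higher and 1 lower (1 and 6 at an unadjusted p under 0.05), with a median of -0.02. The calls on the interferon (2.5%) and biogenesis (3.23%) lists lay near the 2.76% of all genes tested that were called lower.

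Apoptosis genes changed on both sides. Of 21 p53 target and apoptosis genes tested, 3 rose and 3 fell, with 0 or 1 higher and 2 lower without 1 of the 4 libraries compared. Bcl2l1, which encodes the survival protein Bcl-xL, was 46.9 and 33.5 RPKM in XMP, against 22.2 and 18.4 RPKM in Runx1-deleted MEP (log2 0.94 ± 0.21, adjusted p = 0.0171; 0.184 without XMP replicate 1 and 0.123 without MEP replicate 2). Bid, a pro-apoptotic relative, fell (log2 -0.76 ± 0.17, adjusted p = 0.0175; 0.0513 to 0.179 without any 1 of the 4). Among integrins and tetraspanins outside the platelet list, 4 of 24 rose and 4 fell, the falls being Itgb7, Cd82, Tspan8 and Tspan33. Without 1 of the 4 libraries compared, 0 or 1 were called higher, while 4 were called lower. Cd82 was 8.85 and 8.11 RPKM in XMP, against 23.2 and 20.9 RPKM in Runx1-deleted MEP (log2 -1.28 ± 0.16, adjusted p = 0.00111), and Itgb7, an integrin chain used in homing to the gut, 10.4 and 9.85 RPKM against 25.3 and 28.2 RPKM (log2 -1.32 ± 0.22, adjusted p = 0.00444).

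The same boundary can be set beside that of normal marrow, where the cells with CD16/32 are GMP. The difference of wild-type GMP minus wild-type MEP shares no library with that of XMP minus Runx1-deleted MEP, but the gates differ too, because GMP lack CD150 and XMP carry it, so Runx1 and CD150 cannot be told apart in it. Of the same 10234 genes, 1800 (17.6%) were called in wild type, 847 higher (8.28%) and 953 lower (9.31%) in GMP. The filter was set on XMP and Runx1-deleted MEP, so genes held mainly by GMP were left out. With no filter the wild-type counts were 1475 higher and 1103 lower. Of the 574 genes higher in XMP, 192 (33.4%) were higher in wild-type GMP too and 109 (19.0%) were lower there, and of the 282 genes lower in XMP, 162 (57.4%) were lower in wild-type GMP too and 12 (4.26%) higher. The shared genes were 22.7% of the genes higher and 17.0% of those lower in wild-type GMP, counted only among genes that passed this filter. The difference between the 2 differences was called for 980 genes (9.58%), 620 with a larger (6.06%) and 360 with a smaller value (3.52%) in the Runx1-deleted comparison. The counts were 1464 and 480 with wild-type MEP replicate 1 left out, 734 and 816 with its replicate 2 left out, and 355 and 261 with wild-type GMP replicate 2 left out. The difference was called for 304 (53%) of the genes higher in XMP and for 58 (20.6%) of those lower. These 2 shares are no separate evidence, because the difference contains the XMP and Runx1-deleted MEP values by which the genes were selected.

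Platelet genes were among those that went opposite ways. Treml1 differed by log2 1.26 ± 0.21 between XMP and Runx1-deleted MEP and by -4.24 between wild-type GMP and MEP, a difference of 5.50 ± 0.29 (adjusted p = 1.11e-06). F2r differed by 5.70 ± 0.24 (adjusted p = 2.6e-07) and Itga2b by 3.86 ± 0.27 (adjusted p = 6.61e-06) in the same sense. Samd14, a gene of blood stem cells and red cell precursors, was 205 and 208 RPKM in XMP, against 147 and 167 RPKM in Runx1-deleted MEP, and had a difference of 5.90 ± 0.22 (adjusted p = 2.32e-07) with 1.41 RPKM in wild-type GMP and 108 RPKM in wild-type MEP. Primary granule genes rose in both comparisons, but by much less in XMP: the difference was -6.90 ± 0.36 for Elane (adjusted p = 1.06e-06), -5.67 ± 0.32 for Mpo (adjusted p = 1.43e-06) and -6.13 ± 0.26 for Ctsg (adjusted p = 2.6e-07). For Fcgr2b the 2 differences were 2.86 and 3.03, and theirs was -0.17 ± 0.28 (adjusted p = 0.814), or 0.05 with quantile normalization. Red cell genes fell on both sides. Ermap had -3.90 in the Runx1-deleted and -4.49 in the wild-type comparison (difference 0.59 ± 0.43, adjusted p = 0.514) and Rhag -2.76 and -2.40 (difference -0.36 ± 0.30, adjusted p = 0.584), but the difference of Rhag turned to 1.71 with a pseudocount of 0.1 (adjusted p = 0.0445), where wild-type GMP held 0.0838 RPKM. Klf1 fell less in XMP than in wild-type GMP (difference 2.20 ± 0.37, adjusted p = 0.00278), and so did Aqp1 (4.61 ± 0.36, adjusted p = 1.21e-05) and Car1 (2.81 ± 0.56, adjusted p = 0.00808; 0.0557 without wild-type GMP replicate 1).

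**Figure D5:**
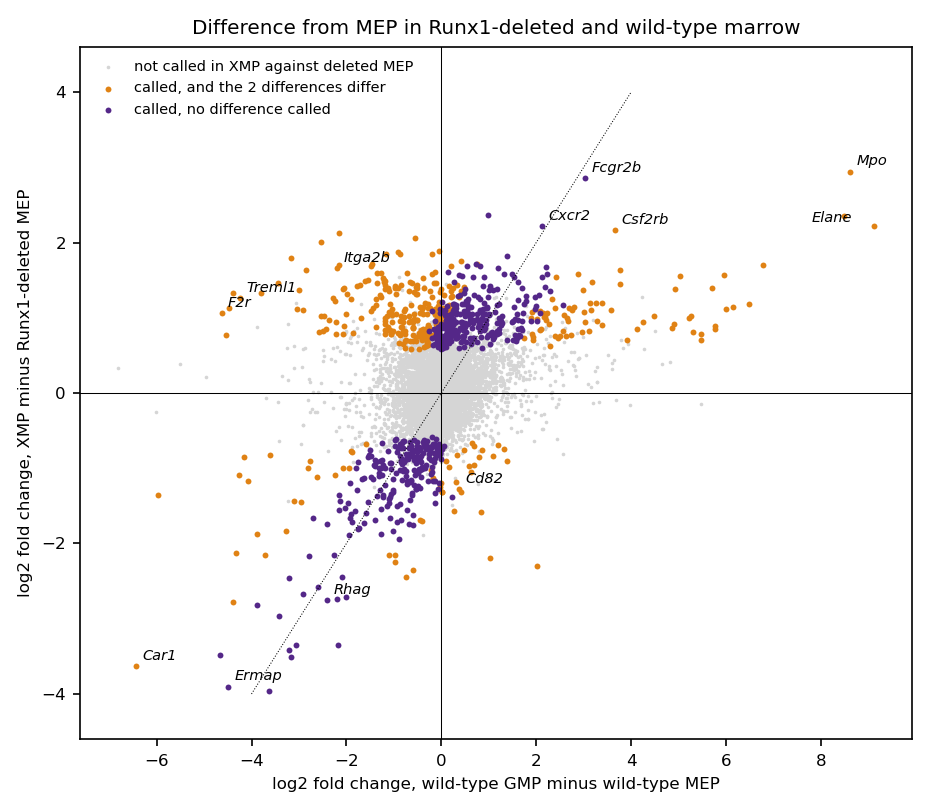
Log2 fold change of XMP minus Runx1-deleted MEP on the y axis against that of wild-type GMP minus wild-type MEP on the x axis, with 1 point per gene tested. Coloured genes were called in the comparison of the y axis, orange where the 2 differences differ by limma and purple where that was not called, and the dotted line marks equal values. Platelet genes such as Treml1, F2r and Itga2b lie upper left, Fcgr2b and Ermap near the line, and Mpo and Elane far to the right.

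The authors' deposited table gives Baggerley's test for the same pair of groups. An FDR-corrected p under 0.05 stood there for 381 genes, all among the genes tested (3.72%). Of these, 242 (63.5%) were called here as well, 163 higher and 79 lower in XMP. In the other direction the overlap was smaller, since these 242 were a minority of the 856 limma calls. They were 163 of the 574 genes called higher and 79 of the 282 called lower. The remaining calls did not reach the authors' threshold, among them Slc4a1, Alas2, Beta-s, Epor, Cebpa, Fcgr3, Csf2rb and Myh10.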

How the data were processed

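Libraries of sorted mouse marrow progenitors were analysed from 1 deposited table. Per the file headers, it holds the authors' RPKM values for 23240 genes in 10 libraries and the authors' p-values of Baggerley's test, with FDR correction. Per the submitters' processing notes, reads were placed on mm9. Which aligner and which counter were used is not given in the sources used here. RNA was extracted with TriFast and libraries were made with 1 of 2 kits, per the labels' protocols, without a record of which. Groups came from the labels, and lanes from the headers.

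A gene was kept when 2 or more of the 4 XMP and Runx1-deleted MEP libraries reached 1 RPKM. A gene under 1 RPKM in both libraries of 1 group therefore entered only through the other group, on every list. Values of log2(RPKM + 1), which understates changes of low genes, entered limma (version 3.58.1, R 4.3.3), which estimated a mean for each of the 5 groups and a trended, moderated spread from 5 residual degrees of freedom. Benjamini-Hochberg adjustment covered all 10234 genes, and an adjusted p under 0.05 was called; ± is the standard error. Every adjusted p in the text comes from limma. Of the planned comparison of XMP with Runx1-deleted GMP only levels are given. Members and gene lists were chosen with earlier results of these data known. Named genes were the 12 largest rises and falls among called genes with groups apart and 5 RPKM or more on average in the higher group, up to 4 members per list and direction with the smallest p, the markers, sort and RUNX genes, and the 6 largest gate differences in each direction; other genes are named only to describe a list. The text prints a selection, and some genes of these lists are not reported here.

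Read totals were recovered from RPKM steps with the help of GENCODE transcript lengths. For each gene not at 0, a length was then sought that gave whole reads within 0.01. It was an annotated length for 4360 genes and the smallest that served for 14976. Whole reads were thus the aim of the search and are no check of it, and the lengths behind the length trend are inferred. On data simulated for XMP against Runx1-deleted MEP with independent normal noise, limma called 60 of 100 genes changed 2-fold and 93 of 100 changed 4-fold. There were 9 false calls among the unchanged genes of the 10234. The folds were set on the log2(RPKM + 1) scale, in genes above about 5 RPKM only. Recovery of lower genes was not measured. Alternatives were quantile normalization, a pseudocount of 0.1, no filter, a minimum mean of 5 RPKM, no trend, group weights, only the groups compared, removal of the length trend, a replicate block, a block by library number (added after seeing the data) and each library left out.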

Additional observations from a re-analysis of the deposited data

How the results depend on the processing

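The counts of genes higher and lower in XMP than in Runx1-deleted MEP (574 and 282) moved by over 1.5 times in at least 1 direction with a mean of at least 5 RPKM (328 and 207), quantile normalization (713 and 579), group weights (970 and 500) and removal of the length trend (867 and 768). They lay between 178 and 987 for higher and between 105 and 481 for lower genes with 1 library left out. Of the 856 calls, 92.6% were kept with quantile normalization and 96.7% with the length trend removed, and 0 changed direction in any setting. The cause of these moves was not tested. The difference between the Runx1-deleted and the wild-type comparison (620 and 360) gave 412 and 184 with a mean of at least 5 RPKM, 389 and 244 with group weights, 591 and 568 with quantile normalization, 703 and 750 with no filter and 872 and 890 with the length trend removed, and 355 to 1464 and 219 to 816 with 1 library left out. Wild-type GMP minus MEP (847 and 953) gave 1475 and 1103 with no filter, 527 and 691 with a mean of at least 5 RPKM, 588 and 564 in a fit of the 4 wild-type libraries, 459 and 413 with group weights and 1373 and 1399 with the length trend removed, and 602 to 1701 and 480 to 1847 with 1 library left out.

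The replicate block gave 530 and 278 calls for XMP against Runx1-deleted MEP, and with only the groups compared 2925 and 2244; for wild-type GMP minus MEP that last fit gave 555 and 469. XMP and MEP of the same number deviated together (correlation 0.79, from 2 pairs), while Runx1-deleted GMP correlated with them at -0.48 and -0.35. Library numbers in the labels fall into 2 sets, 25 to 29 and 30 to 34, each with 1 library of every group and with the GMP replicates crossed. By set, GMP correlated with XMP and MEP at 0.48 and 0.35, but wild-type GMP at -0.16 and -0.12. A replicate block by these sets, chosen after seeing the data, gave 656 and 378 calls and kept 98.1% of the 856. The sets are a hint of pairing from the data; the labels do not say what they mark.

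Of 148 named genes called, 68 kept call and direction in all 21 alternatives; 52 lost the call with no filter, where 19336 genes are tested. Values that were not called in the report and changed sign were Cd34 (-0.31 to 0.08 with 1 library left out), Pf4 (-0.25 to 0.9), Prg2 (-0.39 to 0.11) and 2 differences between comparisons, Fcgr2b (0.05 with quantile normalization, -0.33 to 0.0 with 1 library left out) and Rhag (1.71 with a pseudocount of 0.1). With 2 libraries per group, replicate number limits every test.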
